A study of Mus musculus with 9 samples.

Results

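Psap, which encodes prosaposin, and Gpr37 and Gpr37l1, which encode the G protein-coupled receptors proposed to bind it, were examined in the ribosome-bound mRNA of mouse astrocytes. The 3 genes were chosen by name as a ligand and its receptors. They are 3 of 22092 genes with counts in the data, and all of them were among the 14427 genes that passed the filter on low counts and were tested.

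Prosaposin is a glycoprotein that is cut in lysosomes into small saposins, each of which helps particular hydrolases to degrade sphingolipids. Part of it is secreted and is known as a neurotrophic and glioprotective factor. Gpr37 and Gpr37l1 are closely related receptors that couple to inhibitory G proteins. In brain, Gpr37 is best known from oligodendrocytes and some neurons, and Gpr37l1 from astrocytes.

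Translating ribosome affinity purification (TRAP) precipitates ribosomes that carry a tagged protein together with the mRNAs attached to them. All libraries came from mice of 2 months of the Aldh1L1 JD130 strain with the transgene Aldh1L1-L10aGFP, in which the Aldh1l1 promoter drives the GFP-tagged ribosomal protein L10a in astrocytes, and the labels name no treatment. The 3 whole astrocyte TRAP libraries each came from 1 brain without its choroid plexus. The 6 endfeet TRAP libraries each came from purified brain vessels pooled from 8 mice, to which the perivascular endfeet of astrocytes remain attached. The comparison asked whether the mRNAs of prosaposin and its receptors were more or less abundant on ribosomes of endfeet than on those of whole astrocytes.

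Gene totals were between 35984144 and 43521208 counts in whole astrocyte TRAP and between 2319495 and 13450588 in endfeet TRAP, with the lowest total in endfeet library 6. Levels are given as CPM, counts scaled to the normalized library size. An amount of 3 counts, taken as the floor, equals 0.0689 to 0.0834 CPM in whole astrocyte TRAP and 0.223 to 1.29 CPM in endfeet TRAP. The endfeet libraries varied far more among themselves than the whole astrocyte libraries, with a common dispersion of 0.725 against 0.0141.

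Markers of other cell types differed between the groups and are given here because every endfeet value below was measured beside them. Of all 14427 tested genes 20.7% were called as higher and 13.9% as lower in endfeet TRAP. All 8 of 8 endothelial markers rose in endfeet TRAP, with a summed level between 3115 and 4663 CPM against 6.36 to 7.25 CPM. All 8 of 8 mural cell markers rose as well (3534 to 8015 CPM against 34.3 to 35.8 CPM), as did 5 of 5 fibroblast markers (556 to 1141 CPM against 14.1 to 22.6 CPM). These are cells of the vessel wall and its surroundings, which the Aldh1l1 promoter is not meant to mark.

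Of the 11 markers of microglia and macrophages, 8 rose, and the sum of the list was 246 to 397 CPM against 21.9 to 26.7 CPM. Of the 5 markers of ependyma and choroid plexus, 4 rose, and the sum was 6624 to 88508 CPM against 45.9 to 1427 CPM, highest in endfeet library 1. Most of that sum was Ttr, transthyretin, at 6395 to 86764 CPM in endfeet TRAP. Neuronal markers summed to 978 to 1984 CPM in endfeet TRAP against 3446 to 4002 CPM, and 3 of 8 fell while 5 did not pass the test. Most of the whole astrocyte sum was Snap25, at a mean of 2890 CPM against 799 CPM in endfeet TRAP. No marker of any of the 9 lists was at 0 in all libraries of a group. Fewer cells of a type and less RNA per cell cannot be told apart in such sums.

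**Figure D1:**
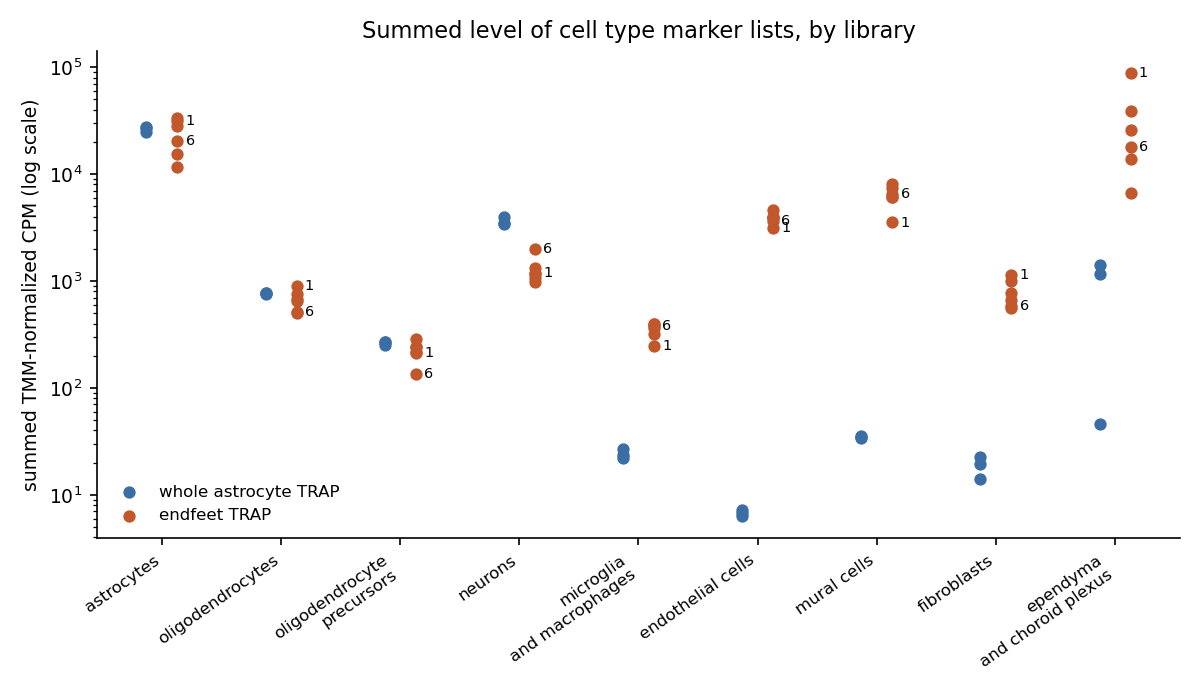
Summed level of each cell type marker list in TMM-normalized CPM on a log axis, with 1 point for each of the 3 whole astrocyte TRAP (blue) and 6 endfeet TRAP (orange) libraries, and with endfeet libraries 1 and 6 numbered. The endothelial list sits at 6.36 to 7.25 CPM in whole astrocyte TRAP and at 3115 to 4663 CPM in endfeet TRAP, and endfeet library 1 is highest in the ependyma and choroid plexus list at 88508 CPM.

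The astrocyte list itself was mixed. Its sum was 24796 to 27521 CPM in whole astrocyte TRAP and 11700 to 33485 CPM in endfeet TRAP, and the groups overlapped. Aqp4, the water channel of endfeet, rose by 1.67 on the log2 scale, and Aldh1l1, Gjb6, Sox9 and Aldoc fell. Aldh1l1, whose promoter drives the tag, had a mean of 258 CPM in whole astrocyte TRAP and 49.5 CPM in endfeet TRAP. The other 7 of the 12 astrocyte markers did not pass the test. The share of the list that was called, 41.7%, was near the 34.6% of all tested genes.

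Psap lies on the plus strand at chr10:60277628-60302597 of mm10 (ENSMUSG00000004207), and no other annotated gene overlaps it. Its transcripts share nearly all exons and 4 of the 5 differ by very short stretches at 1 junction, where an exon that ends at position 60296002 is joined to one that starts at 60299098. Psap-203 has the junction of Psap-202 and starts further downstream, at 60284461. The 4 longest are shown at that junction because the count table lists each of them, and the capitals mark bases outside the exons of Psap-202.
Psap-202: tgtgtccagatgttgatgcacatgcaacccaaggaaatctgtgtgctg
Psap-201: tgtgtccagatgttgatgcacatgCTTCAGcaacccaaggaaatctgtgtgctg
Psap-205: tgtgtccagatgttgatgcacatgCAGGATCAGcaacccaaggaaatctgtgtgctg
Psap-204: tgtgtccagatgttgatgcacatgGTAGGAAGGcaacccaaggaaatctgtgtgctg
The 6 extra bases of Psap-201 lie at chr10:60299092-60299097 and the 9 of Psap-205 at chr10:60297537-60297545. Those of Psap-204 come from 2 stretches between 60296003 and 60299046. Since a read was counted on every transcript that it overlapped, the counts of these 4 transcripts differed by at most 1 in any library, and those of all 5 annotated Psap transcripts by at most 53. The counts therefore give the level of the gene and cannot tell its isoforms apart. Psap-204 (ENSMUST00000177779, 2657 bases, 15 exons) stands for the gene below.

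Psap mRNA was at 131, 115 and 151 CPM in the 3 whole astrocyte TRAP libraries. In endfeet TRAP it was at 1105, 515, 470, 737, 641 and 322 CPM in libraries 1 to 6. All 6 endfeet libraries were above all whole astrocyte libraries, library 1 was the highest, and the shallowest library, 6, was the lowest. Behind these values stood 4331 to 6868 counts in whole astrocyte TRAP and 705 to 9157 counts in endfeet TRAP.

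The mean was 132 ± 18.1 CPM (SD, n = 3) in whole astrocyte TRAP and 632 ± 272 CPM (SD, n = 6) in endfeet TRAP. Psap was thus higher in endfeet TRAP by 4.78-fold, a log2 fold change of 2.26 (SE 0.38, 95% interval 1.44 to 3.07, edgeR adjusted p = 5.19e-04). In the same fit 34.6% of all tested genes passed the threshold of 0.05, 20.7% of them as higher and 13.9% as lower in endfeet TRAP, and for 18.9% all endfeet libraries were above all whole astrocyte libraries. The median log2 fold change of all tested genes was 0.10.

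Psap rose beside the markers given above, and prosaposin is made by many cell types. Endfeet library 1 was highest both in Psap and in the summed markers of ependyma and choroid plexus. These markers summed to 88508, 39168, 25917, 13749, 6624 and 18073 CPM in endfeet libraries 1 to 6. Without library 1 the log2 fold change was 2.02. The numbers in the file names put endfeet libraries 4 to 6 in a series with all whole astrocyte libraries, and within that series it was 1.97 (edgeR adjusted p = 0.00337). The part of other cell types in the Psap values was not tested.

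**Figure D2:**
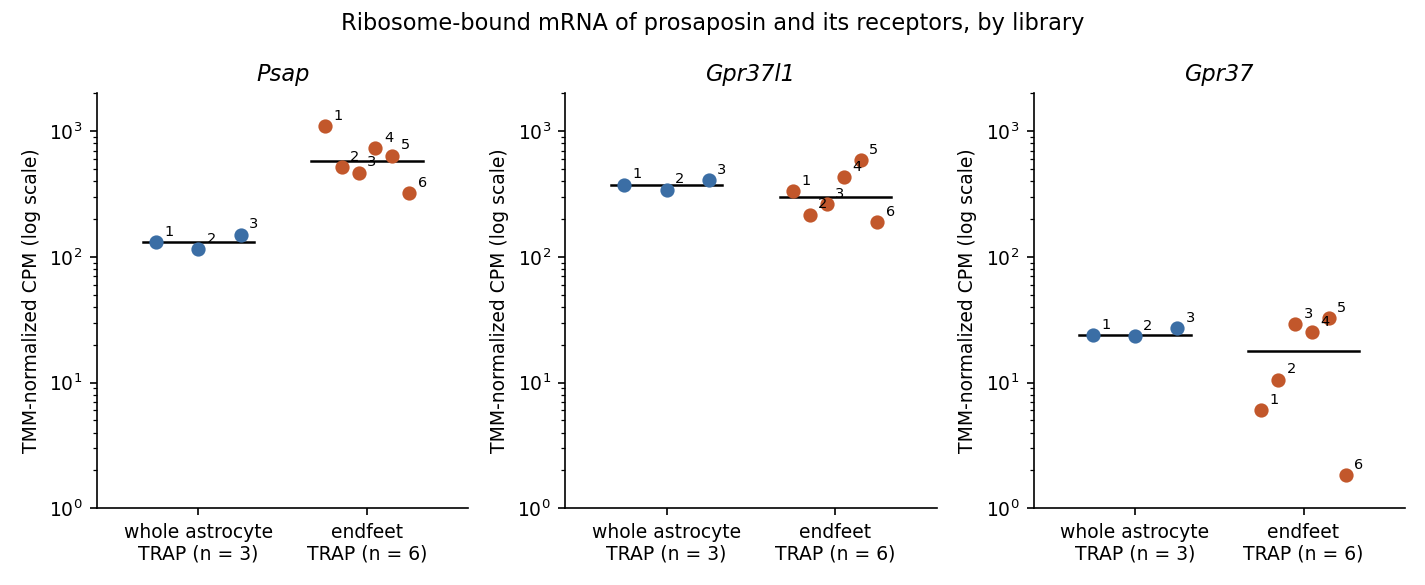
Level of Psap, Gpr37l1 and Gpr37 in TMM-normalized CPM on a log axis, with 1 numbered point for each library and a black line at the median of its group. The 6 endfeet points of Psap lie between 322 and 1105 CPM, above the whole astrocyte points at 115 to 151 CPM, whereas the groups overlap for Gpr37l1 and Gpr37.

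Gpr37l1 lies on the minus strand at chr1:135160234-135167681 (ENSMUSG00000026424, transcript ENSMUST00000027682, 2269 bases, 2 exons). Its mRNA was at 377, 343 and 408 CPM in whole astrocyte TRAP. In endfeet TRAP it was at 336, 218, 264, 431, 593 and 189 CPM in libraries 1 to 6. Libraries 4 and 5 were above all whole astrocyte libraries and the other 4 were below all of them, so that the endfeet libraries lay on both sides.

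The mean of Gpr37l1 was 376 ± 32.6 CPM (SD, n = 3) in whole astrocyte TRAP and 339 ± 152 CPM (SD, n = 6) in endfeet TRAP. The difference did not pass the test, with a log2 fold change of -0.15 (SE 0.34, edgeR adjusted p = 0.765). Its 95% interval ran from -0.88 to 0.59, so a change of the size measured for Psap lay outside it. The sign turned when endfeet library 2 was left out (0.010) and when the file number series was a covariate (0.11). The SD was 45.0% of the mean of the endfeet libraries and 8.67% of that of the whole astrocyte libraries.

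Gpr37 lies on the minus strand at chr6:25667503-25690729 (ENSMUSG00000039904, transcript ENSMUST00000054867, 4974 bases, 2 exons). Its mRNA was at 23.8, 23.4 and 27.0 CPM in whole astrocyte TRAP. In endfeet TRAP it was at 6.004, 10.6, 29.0, 25.3, 32.4 and 1.83 CPM in libraries 1 to 6. Libraries 3 and 5 were above all whole astrocyte libraries, library 4 was among them, and libraries 1, 2 and 6 were below.

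Gpr37 spread most among the 3 genes, with a highest endfeet value 17.7 times the lowest, against 3.43 times for Psap and 3.14 times for Gpr37l1. Its low values rested on few counts. Library 6 held 4 counts, for which the exact Poisson interval at 95%, which covers counting error only, runs from 1.09 to 10.2 counts, and library 1 held 32. The whole astrocyte libraries held 879 to 1231.

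The mean of Gpr37 was 24.7 ± 1.98 CPM (SD, n = 3) in whole astrocyte TRAP and 17.5 ± 12.96 CPM (SD, n = 6) in endfeet TRAP. The log2 fold change was -0.49 (SE 0.72, edgeR adjusted p = 0.634), and its 95% interval, from -2.04 to 1.07, spans from 0.243-fold to 2.10-fold. At this spread the interval left out neither a 4-fold decrease nor a 2-fold increase of Gpr37, nor no difference.

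Oligodendrocytes, another source of Gpr37, had summed markers at 761 to 771 CPM in whole astrocyte TRAP and at 508 to 907 CPM in endfeet TRAP, and the groups overlapped. Of the 12 markers Mal, a myelin proteolipid also made outside the oligodendrocyte lineage, rose from a mean of 27.8 to 231 CPM. Cnp, a myelin enzyme, fell from 399 to 87.0 CPM, and the other 10 did not pass the test. Thus 16.7% of the list was called, beside 34.6% of all tested genes. The median log2 fold change of the list was -1.08, with 5 positive and 7 negative values. Endfeet library 1, where Gpr37 was low, had the highest sum of all 9 libraries. In that library 5 of the 12 were at 0 and in library 6 3 of the 12, and these were the libraries with the lowest totals and the highest floors, at 0.461 and 1.29 CPM. Mog, Mag, Ermn, Ugt8a, Opalin and Aspa were at 0 in at least 1 library. Their means in whole astrocyte TRAP ran from 2.30 CPM (Opalin) to 40.8 CPM (Ermn), all above these floors. Of the 6 markers of oligodendrocyte precursors, Pdgfra and Cspg4, which fibroblasts and mural cells also express, rose and Olig1 and Olig2 fell. The part of these cells in the Gpr37 values was not tested.

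Levels of different genes were set side by side as CPM per kb of transcript. On this scale Gpr37l1 was at 166 ± 14.4 (SD, n = 3), Psap at 49.7 ± 6.80 and Gpr37 at 4.97 ± 0.399 CPM per kb in whole astrocyte TRAP. In endfeet TRAP Psap was at 238 ± 103 (SD, n = 6), Gpr37l1 at 149 ± 67.1 and Gpr37 at 3.52 ± 2.61 CPM per kb. By mean CPM per kb Psap stood at rank 1465 of 22092 genes in whole astrocyte TRAP and at rank 108 in endfeet TRAP. Gpr37l1 stood at ranks 307 and 190, and Gpr37 at ranks 7826 and 10079.

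Ratios between genes of the same library do not depend on how libraries are scaled. Psap was below Gpr37l1 in all 3 whole astrocyte libraries, with 3.17 to 3.50 times as much Gpr37l1 as Psap per length. In endfeet TRAP this ratio was between 0.356 and 1.08, and in 5 of 6 libraries Psap was above Gpr37l1. All 6 endfeet ratios were below all whole astrocyte ratios. The mean log2 ratio was lower by 5.35-fold in endfeet TRAP, a difference of -2.42 (two-sided exact permutation test, p = 0.0238, adjusted p = 0.0357 over 3 ratios). That p is the smallest that 6 against 3 libraries allow.

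The ratio of Gpr37 to Psap was lower in endfeet TRAP likewise, at 0.00290 to 0.0330 against 0.0957 to 0.109 in whole astrocyte TRAP. The difference was -3.22 on the log2 scale, or 9.31-fold (exact permutation test, p = 0.0238, adjusted p = 0.0357). Both ratios share the Psap counts and are not independent of the change in Psap.

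The ratio between the receptors did not pass the test. Gpr37l1 exceeded Gpr37 per length by 32.1 to 34.7 times in whole astrocyte TRAP and by 19.9 to 227 times in endfeet TRAP, where 5 libraries were above the whole astrocyte range and library 3 was below it. The mean log2 ratio was 5.06 ± 0.0579 (SD, n = 3) over the whole astrocyte libraries and 5.86 ± 1.28 (SD, n = 6) over the endfeet libraries, a difference of 0.80 (exact permutation test, p = 0.381). Without endfeet library 3, the only one below that range, it was 1.11 (exact permutation test, adjusted p = 0.0357). The groups then no longer overlapped, so that p is the smallest that the libraries left allow. Under the other 11 alternatives this ratio did not pass the test.

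**Figure D3:**
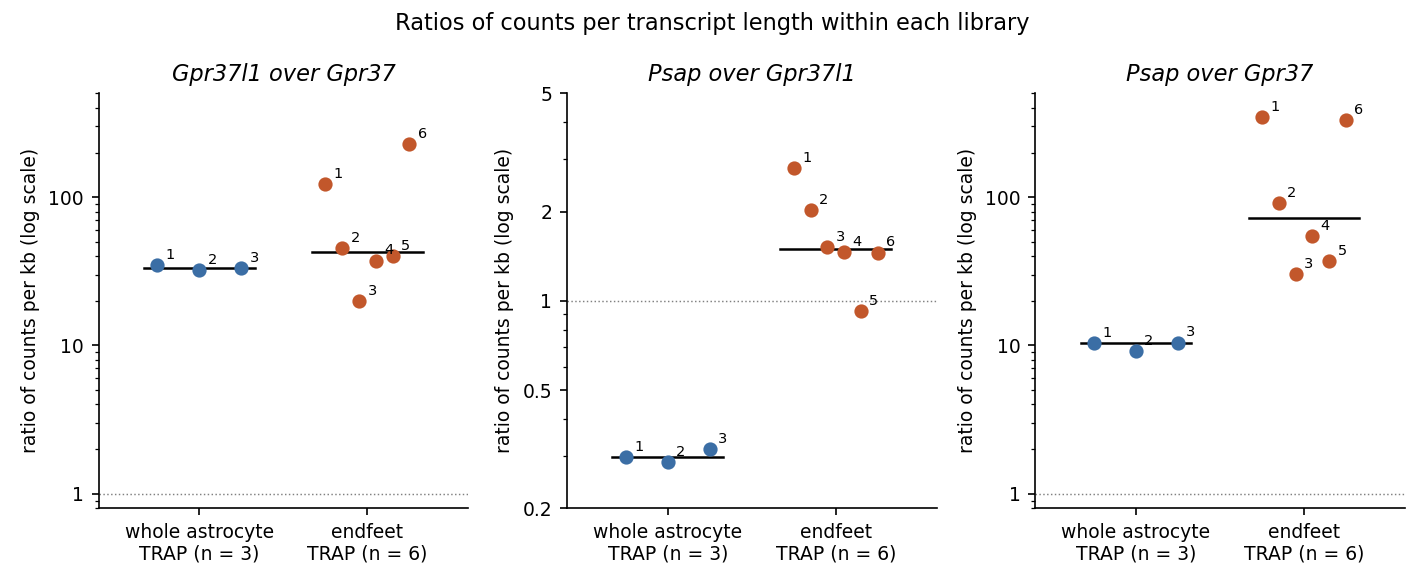
Ratios of counts per kb of transcript within each library on log axes, with numbered points and a black line at the group median, and with a dotted line at equal levels. Gpr37l1 exceeds Gpr37 in all 9 libraries, and the ratio of Psap to each receptor is higher in all 6 endfeet TRAP libraries than in the 3 whole astrocyte TRAP libraries.

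Genes linked to prosaposin or its receptors were taken as 3 lists, which were chosen with earlier results of these data known. The first list holds progranulin, receptors that sort or take up proteins, lysosomal proteases and a lysosomal membrane protein. Their part in handling prosaposin was not tested here. Of these genes 10 of 10 rose in endfeet TRAP, beside 20.7% of all tested genes. The list had a median log2 fold change of 1.97, beside 0.10 over the whole fit. Lrp1, an endocytic receptor, was at 26.5 to 37.1 CPM in whole astrocyte TRAP and at 186 to 868 CPM in endfeet TRAP, a log2 fold change of 4.07 (SE 0.45, edgeR adjusted p = 2.22e-05). Grn, which encodes progranulin, a binding partner of prosaposin, was at 15.7 to 19.9 CPM and at 133 to 187 CPM, a log2 fold change of 3.11 (SE 0.30, edgeR adjusted p = 5.87e-06). Sort1, which encodes the sorting receptor sortilin, was at 80.6 to 100.4 CPM and at 236 to 467 CPM, a log2 fold change of 1.90 (SE 0.29, edgeR adjusted p = 2.21e-04).

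Ctsd, the lysosomal protease known to cleave prosaposin, rose by 2.35 on the log2 scale and was at 164 to 999 CPM against 112 to 149 CPM. The mannose 6-phosphate receptors Igf2r and M6pr rose by 3.65 and 1.57. The proteases Ctsb and Ctsl rose by 2.04 and 1.61, the sorting receptor Sorl1 by 1.596 and the lysosomal membrane protein Scarb2 by 1.38. M6pr lost the call without whole astrocyte library 2, and Scarb2 without whole astrocyte library 1, 2 or 3 or endfeet library 5. Over all genes fewer were called as higher without any of these libraries as well. In each of the 10 genes all 6 endfeet libraries were above all whole astrocyte libraries, as was the case for 18.9% of all tested genes. Many of these genes are also strongly expressed by microglia, macrophages and vascular cells, whose markers rose with them, and the part of those cells was not tested.

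The second list holds lysosomal enzymes and cofactors of the sphingolipid breakdown that saposins assist. Of its 9 genes reported 7 rose and 0 fell, where 20.7% of all tested genes rose and 13.9% fell. These 9 genes had a median of 1.31 on the log2 scale, beside 0.10 over the whole fit. Glb1, the lysosomal β-galactosidase, was at 4.27 to 5.16 CPM in whole astrocyte TRAP and at 19.3 to 98.7 CPM in endfeet TRAP, a log2 fold change of 3.21 (SE 0.65, edgeR adjusted p = 0.00203). Hexa, a subunit of β-hexosaminidase, rose by 2.44, and Asah1, the acid ceramidase, by 1.29.

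Galc, the galactosylceramidase, rose by 1.81, the sialidase Neu1 by 1.71, the acid sphingomyelinase Smpd1 by 1.31 and the GM2 activator Gm2a by 1.09. These last 4 lost the call under some of the settings below, and without each of whole astrocyte libraries 1, 2 and 3 and endfeet library 5 only 3 genes of the list were called. Leaving out a whole astrocyte library also lowered the number of all genes called as higher, from 2991 to between 1874 and 1959. Arsa and Gla, which encode arylsulfatase A and α-galactosidase A, did not pass the test, with log2 fold changes of 1.31 and 0.64. Arsa was at 5.73 to 6.01 CPM in whole astrocyte TRAP and at 4.88 to 30.9 CPM in endfeet TRAP, and the groups overlapped.

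The third list holds G protein subunits, arrestins and proteins reported to interact or signal with the receptors. Of its 13 genes reported 2 rose, 4 fell and 7 did not pass the test, which is 46.2% called beside 34.6% of all tested genes, with a median log2 fold change of -0.02. Gnao1, an inhibitory G protein subunit abundant in neurons, was at 1118 to 1320 CPM in whole astrocyte TRAP and at 151 to 226 CPM in endfeet TRAP, and fell by 2.67 on the log2 scale (SE 0.22, edgeR adjusted p = 1.75e-06). The related subunits Gnaz and Gnai1 fell by 1.95 and 1.74 and the arrestin Arrb1 by 1.61, and Gnaz lost the call without whole astrocyte library 1. In each of these 4 genes all endfeet libraries were below all whole astrocyte libraries, as was the case for 23.8% of all tested genes. Summed neuronal markers, in whole astrocyte TRAP mostly Snap25, were lower in endfeet TRAP as well. Of the 8 markers 3 were called as lower, and Slc17a7 (0.86) and Stmn2 (0.22) had positive log2 fold changes that did not pass the test. The part of neurons was not tested.

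The inhibitory subunits Gnai2 and Gnai3, with log2 fold changes of 0.40 and -0.33, did not pass the test. Nor did Arrb2, Ptch1, Ednrb and Mapk3, nor Slc1a3, the glutamate transporter GLAST, which was at 941 to 1202 CPM and at 530 to 1970 CPM. Ednra, an endothelin receptor typical of mural cells, rose by 3.45 and was at 36.6 to 140.9 CPM against 6.76 to 9.47 CPM. Adcy8, an adenylate cyclase, rose by 2.26 (edgeR adjusted p = 0.0406), and it lost the call without any of whole astrocyte libraries 1, 2 and 3 and endfeet libraries 1, 4 and 5.

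Over the 32 genes reported from the 3 lists 23 were called, 19 as higher and 4 as lower. That is 71.9%, beside 34.6% of all tested genes. Since the lists were chosen with earlier results of these data known, these shares do not test the pathway. Psapl1, the paralog of Psap, held 1 count in whole astrocyte library 2, 1 count in endfeet library 2 and 0 counts elsewhere. It was under the floor in every library and was not tested.

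**Figure D4:**
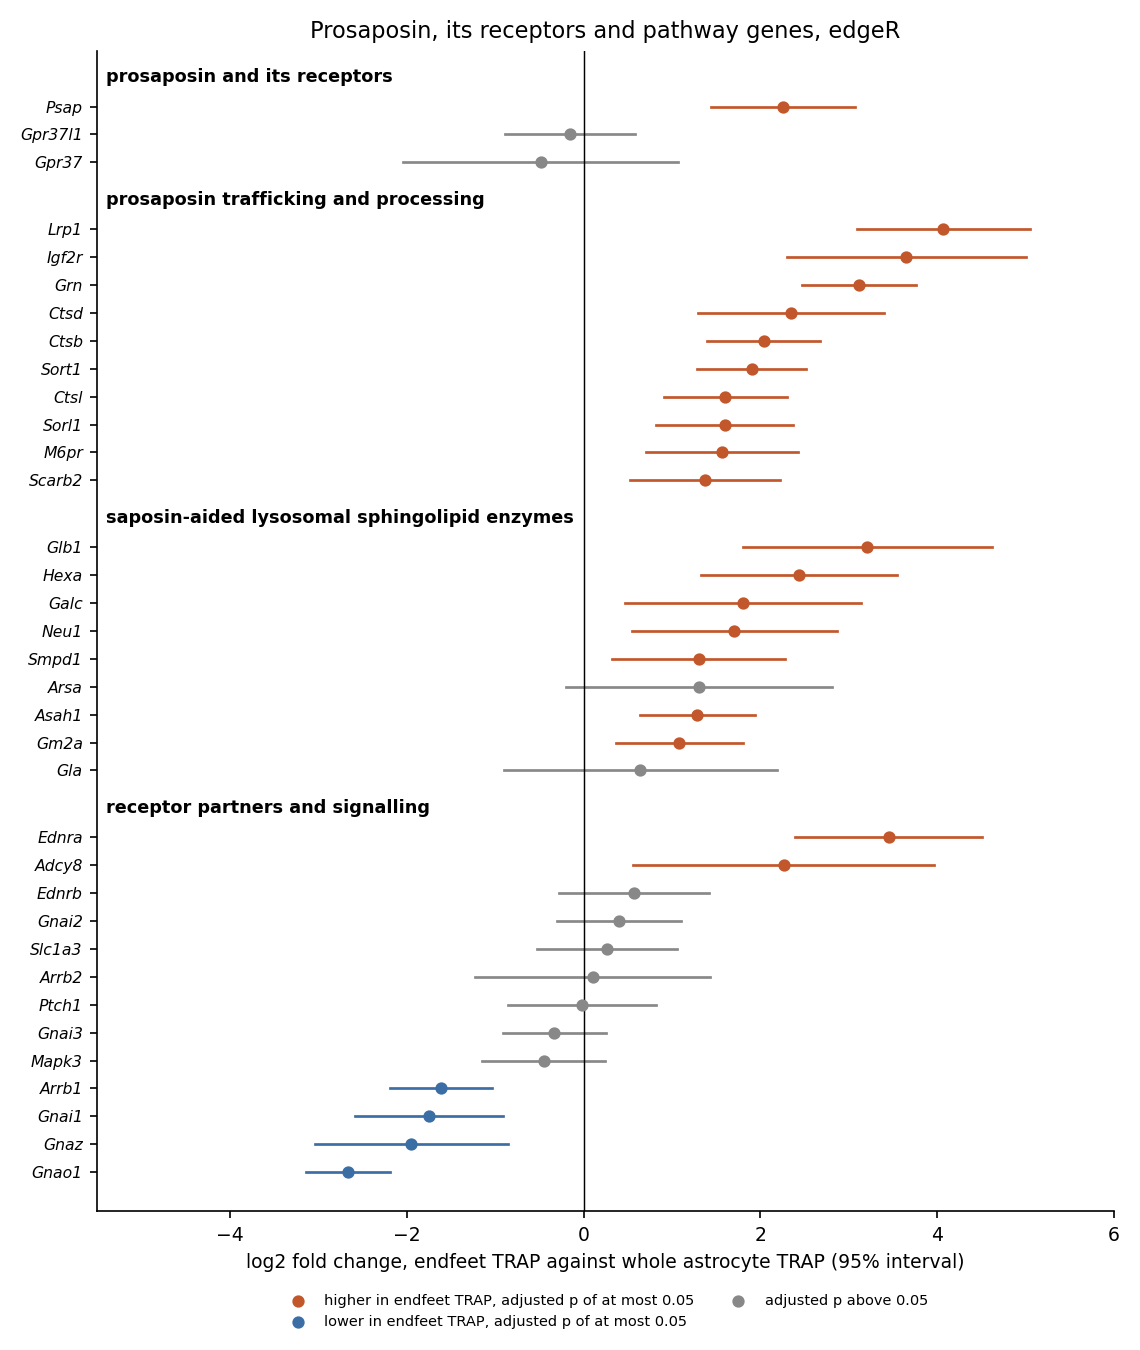
Log2 fold change of endfeet TRAP against whole astrocyte TRAP (edgeR, n = 6 and n = 3) with its 95% interval for prosaposin, its receptors and the 32 genes reported from the 3 pathway lists, coloured by whether the adjusted p was at most 0.05. The 10 trafficking and processing genes lie right of 0 with Psap, and Gpr37 and Gpr37l1 lie among the uncalled genes, with intervals that cross 0.

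The genes whose profile over the 9 libraries was most like that of each gene were found among 10195 tested genes with a mean of at least 10 CPM, by the root mean square difference of centred log2(CPM + 1) values. For Psap these were Adipor2 (0.141), Ganab (0.169), Ktn1 (0.171), Slc12a4 (0.214) and Chst11 (0.221), where the median over all genes was 1.44. For Gpr37l1 they were Tppp (0.141), Mief2 (0.144), Eif2b3 (0.179), Rnf185 (0.202) and Ttyh1 (0.214), with a median of 1.04. For Gpr37 the closest genes were less alike, namely Unk (0.253), Ddx19a (0.269), Lingo1 (0.345), Fam13a (0.358) and Bak1 (0.367), with a median of 1.41. The differences are in log2 units and describe likeness over these libraries only.

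Other settings of the analysis left the calls of the 3 genes as they were. Under 18 alternatives Psap was higher in endfeet TRAP by 1.97 to 2.40 on the log2 scale and passed the test each time. Gpr37l1 ranged from -0.50 to 0.11 and Gpr37 from -1.001 to -0.25, and neither passed under any of them.

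**Figure D5:**
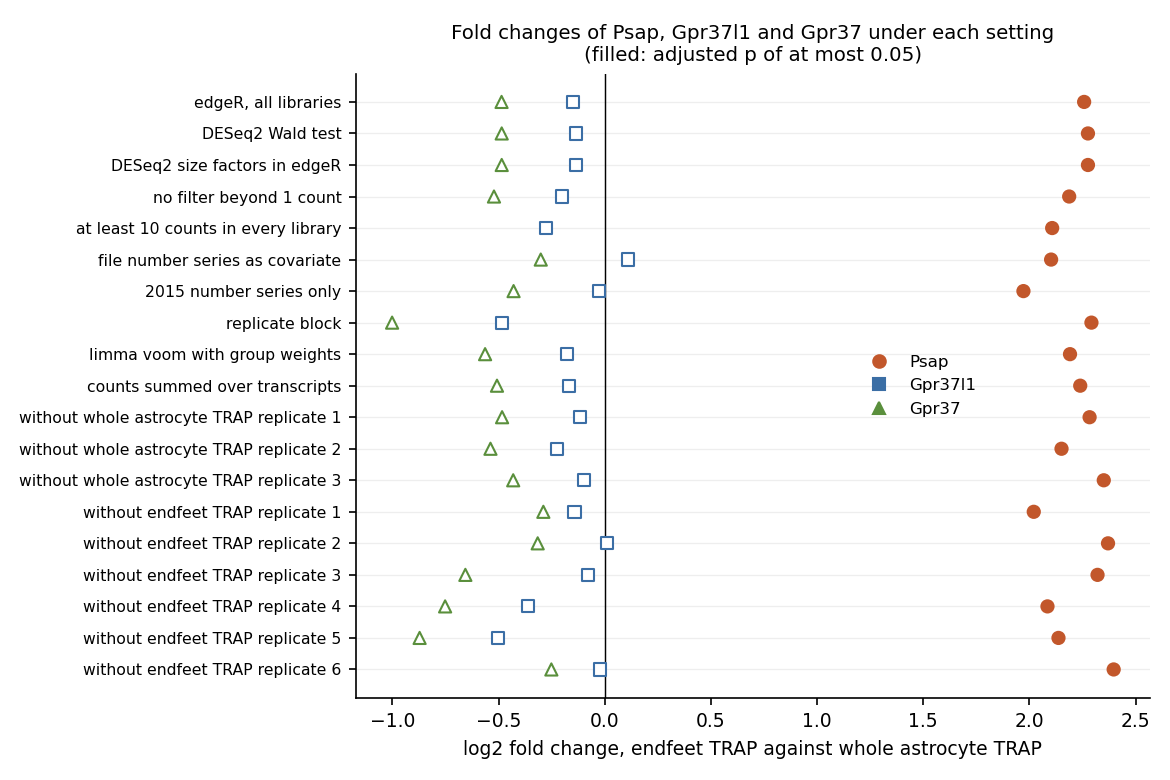
Log2 fold change of Psap (circles), Gpr37l1 (squares) and Gpr37 (triangles) under each setting of the analysis and with each library left out, with filled symbols where the adjusted p was at most 0.05. Psap stays between 1.97 and 2.40 with filled symbols throughout, and the symbols of Gpr37l1 and Gpr37 are open at every setting.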

How the data were processed

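RNA of 9 TRAP libraries was amplified from 10 ng and sequenced as reads of 50 bp. The authors aligned filtered reads to mm10 with Bowtie, kept those with a single alignment and counted them per Ensembl transcript with HTSeq-count (0.5.3 in the submitters' processing notes). The deposited values are raw counts. Strand settings are not given in the sources used here.

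Of 75466 transcripts 73164 matched GENCODE M21 of the same build, and 2302 were not used. For each gene the transcript with the largest sum of CPM over libraries was taken. Groups were compared with edgeR 4.0.16 (TMM, filterByExpr, quasi-likelihood test, Benjamini-Hochberg adjustment over all tested genes, threshold 0.05) in R 4.3.3. The code was tried on simulated counts that gave each gene the same dispersion in both groups. The common dispersions here were 0.725 and 0.0141, so the simulation does not show how the test behaves at such unequal spread. A standard error is the size of the log2 fold change over the root of its F statistic. For ratios, two-sided exact permutation tests were run in scipy 1.17.1. Labels do not say whether libraries share animals, so p-values measure the spread between these libraries. Alternatives used DESeq2 1.42.0 and limma 3.58.1. Genes named are the 3 genes, those of the pathway and marker lists, and the 5 most alike to each gene. Some genes of the sphingolipid enzyme and receptor partner lists are not reported here and were left out of the counts, whatever their values. Members and lists were chosen with earlier results of these data known.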

Additional observations from a re-analysis of the deposited data

Results flagged for a closer look

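In 5 of 38 sets of 6 endfeet values that were examined, the highest library lay far from the others by Dixon's criterion. About 1 of 20 sets of independent, normally distributed values would meet it. CPM values were not log-transformed for it and the sets share libraries, so 5 of 38 cannot be set against that rate. None of the 5 sets belonged to Psap, Gpr37 or Gpr37l1 or to their ratios. Endfeet library 1, which was also highest in Psap and in choroid plexus markers, stood apart for Hexa at 113 CPM (next library 58.6), Smpd1 at 228 CPM (next 100.5), Ctsb at 1629 CPM (next 1054) and Ctsl at 486 CPM (next 308). Without that library Hexa, Smpd1, Ctsb and Ctsl still passed the test, with log2 fold changes of 2.09, 0.92, 1.85 and 1.38. Ptch1, the hedgehog receptor Patched, stood apart in endfeet library 5 at 127.6 CPM (next 68.1). The causes were not tested.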

How the results depend on the processing

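Psap passed the test under all 18 alternatives, at 1.97 to 2.40 on the log2 scale with adjusted p from 1.77e-08 to 0.00602 (edgeR, DESeq2 and limma). Gpr37 passed under none of 17 (-1.001 to -0.25) and had too few counts for the filter of at least 10 counts in every library. Gpr37l1 passed under none of 18. Its sign turned with the file number series as a covariate (0.11) and in the range over left-out libraries (-0.50 to 0.010).

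Same-numbered libraries did not deviate together (correlations -0.0339, 0.00847 and 0.0714). With the replicate number as a block, endfeet libraries 4 to 6 had no whole astrocyte partner. The estimates then rested on libraries 1 to 3 of each group, whose file number series differ between the groups. With this block Psap was at 2.29, Gpr37 at -1.001, Gpr37l1 at -0.48, and 1 receptor partner rose. Galc (0.90), Neu1 (1.64), Scarb2 (1.07), Gnaz (-2.07) and Adcy8 (1.37) did not pass with the block. It also turned Gla (-0.10), Arrb2 (-0.43) and Slc1a3 (-0.21). Other turned signs were those of Arrb2 (-0.016 with at least 10 counts in every library, -0.051 with limma voom, -0.28 to 0.31 over left-out libraries) and Ptch1 (0.0045 with DESeq2, 0.0044 with its size factors, 0.38 with the series covariate, 0.24 in the series of endfeet libraries 4 to 6, -0.43 to 0.12 over left-out libraries), none of them called.

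Of 23 called pathway genes 15 kept the call under every alternative and 8 lost it in some (Adcy8, Galc, Gm2a, Gnaz, M6pr, Neu1, Scarb2 and Smpd1). Arsa gained it with limma voom. With libraries left out, 3 to 7 sphingolipid enzymes rose, 8 to 10 trafficking genes, and 1 to 2 receptor partners. That last count was also 1 with the series covariate and with counts summed over transcripts. Over all genes 1874 to 3380 rose and 1171 to 2642 fell with a library left out, and fewer samples were then tested. limma voom called 4485 as lower and 3928 as higher, so 46.7% of calls were higher against 59.9%, and 49.8% were higher in the series of endfeet libraries 4 to 6. The median of all genes moved to -0.29, -0.22 and -0.16 with limma voom, the block and that series.

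In that series the ratios to Psap differed by -2.06 (Gpr37l1) and -3.13 (Gpr37), where 20 splits allow no p under 0.1. Over left-out libraries they ranged from -2.58 to -2.26 and from -3.54 to -2.84, with adjusted p of 0.0357 to 0.107 by the exact permutation test, whose number of splits was then smaller. The ratio of Gpr37l1 to Gpr37 ranged from 0.40 to 1.11. The unequal spread of the groups and the low total of endfeet library 6 limit what could be seen of Gpr37.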
